A study of Mus musculus with 18 samples.

Results

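The KDM2A sites described here were the genomic intervals that carried a KDM2A ChIP-seq peak in every WT B cell library and in no KO B cell library. Peaks of the 6 KDM2A lists were merged wherever they overlapped by at least 1 bp, which gave 67881 intervals. Of these, 475 (0.7%) held a peak in all 3 WT lists and in none of the 3 KO lists, and they are called WT-only intervals. The members were thus chosen by the KDM2A peak calls themselves, so their KDM2A presence, fold, width and q-value are given as descriptions and were not tested. The reverse pattern, a peak in all 3 KO lists and in no WT list, was found at 38 intervals, and 5250 intervals held a peak in all 6 lists. Both counts rested on single libraries. Without KO replicate 2 there were 694 WT-only and 256 KO-only intervals, and with any 1 library left out the ranges were 694 to 1571 and 82 to 256.

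The study examined whether loss of the microRNA miR-155 alters where KDM2A binds and where H3K36me2 lies in B cells under low oxygen. WT cells carried an intact Mir155 gene, KO cells came from Mir155-deficient mice, and both lines were on a C57BL/6J background. B cells were isolated from spleen by depletion of CD43+, Ter119+ and CD4+ cells and cultured for 2 days at 1% O2 with anti-CD40, anti-IgM F(ab′)2 and IL-4, so that both genotypes shared the hypoxia and the stimuli. Chromatin was crosslinked with formaldehyde after the long-armed reagent EGS, and was precipitated with a non-commercial antibody to KDM2A or with an antibody to H3K36me2. Each genotype and antibody had 3 libraries, and in each of these groups replicate 1 was male and replicates 2 and 3 were female. Of the 18 samples, the 6 inputs were not used here. No restriction of the deletion to B cells was stated.

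KDM2A is a histone demethylase with a CXXC zinc finger that binds unmethylated CpG dinucleotides and a JmjC domain that removes methyl groups from lysine 36 of histone H3. CpG islands, stretches of DNA rich in unmethylated CpG that cover most promoters of broadly expressed genes, are its best known binding places, and H3K36me2 is usually low there. H3K36me2 is deposited over gene bodies and between genes by enzymes such as NSD1, NSD2 and ASH1L.

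WT-only intervals included CpG-rich sites, mostly near start sites, and CpG-poor sites, which lay both near start sites and away from them. The sequences below show both kinds. They are the 200 bases around the middle of the stretch common to the 3 WT peaks, on the plus strand of GRCm38, for the members of high KDM2A fold at a CpG island and then for those without an island. Each CpG is in capitals. Some members of equal or higher fold are not printed because their window held annotated UTR bases, and others for brevity.
C030034I22Rik promoter, island, chr17:69417376-69417575: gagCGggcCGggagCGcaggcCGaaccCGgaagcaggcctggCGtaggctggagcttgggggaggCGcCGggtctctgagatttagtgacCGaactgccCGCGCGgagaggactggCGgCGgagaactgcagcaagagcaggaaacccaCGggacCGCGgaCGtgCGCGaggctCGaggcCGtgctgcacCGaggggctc
Gm10505 first kilobase, island, chr17:27325204-27325403: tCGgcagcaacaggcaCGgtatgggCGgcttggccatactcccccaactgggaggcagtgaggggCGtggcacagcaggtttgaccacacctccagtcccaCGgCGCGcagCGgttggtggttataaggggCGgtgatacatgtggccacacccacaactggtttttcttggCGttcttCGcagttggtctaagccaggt
Twistnb coding exon, island, chr12:33429698-33429897: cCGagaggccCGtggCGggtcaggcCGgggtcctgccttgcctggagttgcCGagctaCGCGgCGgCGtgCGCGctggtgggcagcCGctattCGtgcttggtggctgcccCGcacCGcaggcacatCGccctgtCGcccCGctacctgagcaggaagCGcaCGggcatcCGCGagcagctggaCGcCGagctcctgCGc
Isoc2a upstream, island, chr7:4876923-4877122: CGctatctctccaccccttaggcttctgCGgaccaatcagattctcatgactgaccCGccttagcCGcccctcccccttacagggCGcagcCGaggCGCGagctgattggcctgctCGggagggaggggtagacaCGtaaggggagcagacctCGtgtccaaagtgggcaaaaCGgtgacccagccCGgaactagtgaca
Fibcd1 intron nearest to Qrfp, no island, chr2:31822834-31823033: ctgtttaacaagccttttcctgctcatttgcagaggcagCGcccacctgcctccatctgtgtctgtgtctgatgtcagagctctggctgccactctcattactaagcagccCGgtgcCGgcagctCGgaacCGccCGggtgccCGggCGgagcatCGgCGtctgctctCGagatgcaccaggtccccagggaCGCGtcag
Etv6 intron, no island, chr6:134220309-134220508: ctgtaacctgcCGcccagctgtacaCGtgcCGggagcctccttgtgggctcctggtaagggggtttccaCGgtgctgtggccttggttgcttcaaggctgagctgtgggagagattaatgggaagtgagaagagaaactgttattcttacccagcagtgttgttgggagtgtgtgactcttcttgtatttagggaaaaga
BC028471 non-coding exon, no island, chr5:149374082-149374281: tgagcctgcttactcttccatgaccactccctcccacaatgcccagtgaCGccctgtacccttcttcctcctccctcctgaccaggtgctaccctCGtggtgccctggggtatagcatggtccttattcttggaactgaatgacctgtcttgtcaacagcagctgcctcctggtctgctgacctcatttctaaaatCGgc
Tmem229b intron, no island, chr12:78980826-78981025: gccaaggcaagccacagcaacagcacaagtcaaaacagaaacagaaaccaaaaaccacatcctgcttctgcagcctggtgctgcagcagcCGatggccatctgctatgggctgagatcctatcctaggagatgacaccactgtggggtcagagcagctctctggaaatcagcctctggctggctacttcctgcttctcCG

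The island windows of C030034I22Rik, Gm10505, Twistnb and Isoc2a held 23, 11, 25 and 13 CpG. The windows in Etv6, BC028471 and Tmem229b held 4, 3 and 2 CpG, and the centre of the Tmem229b interval lay 308 bp from a start site. The window in the Fibcd1 intron had 13 CpG although no computed island overlapped the interval. A strong WT-only KDM2A peak was therefore found both on CpG-rich and on CpG-poor sequence.

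The signal of the WT-only intervals was close to the threshold of the peak caller. The KDM2A fold of a peak is its enrichment over the local control background, and at each interval the strongest peak of a list was taken. In WT replicate 1 the fold at the 475 intervals ran from 1.62 to 4.06 with a median of 2.59, in WT replicate 2 from 1.65 to 4.83 with a median of 2.82, and in WT replicate 3 from 1.67 to 4.40 with a median of 2.68. The medians of the whole lists were 2.61, 2.87 and 2.69, so that the typical WT-only peak had the strength of a typical peak of its list. The mean fold over the 3 WT libraries had a median of 2.74 at WT-only intervals and 3.16 at intervals of all 6 lists, and exceeded 3 at 58 (12.2%) of the WT-only intervals and at 70.2% of the intervals of all 6 lists.

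The members just inside and just outside the rule had similar values. The median of the mean WT fold was 2.67 at the 2650 intervals with peaks in only 2 WT lists and no KO list, 2.74 at the WT-only intervals, and 2.82 at the 969 intervals with peaks in all 3 WT lists and 1 KO list. The lowest −log10 q over the WT lists had medians of 1.47, 1.45 and 1.62 in the same order, and 2.39 at intervals of all 6 lists. Only 47 of the WT-only intervals (9.89%) reached a −log10 q of 2 in all 3 WT lists. The absence of a KO peak means that no KO peak passed the caller's threshold, and the KDM2A level below it was not measured in these lists.

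The KDM2A lists of KO cells were shorter, with 15667, 15387 and 21705 peaks against 29105, 23372 and 26831 in WT, and read depths were unknown, so genotype and list length cannot be told apart. When each list was limited to its 15387 peaks of highest fold, 133 intervals were WT-only and 105 were KO-only, and 91 of the 475 members (19.2%) remained among the former. Peaks with a −log10 q of at least 2 alone gave 315 WT-only and 13 KO-only intervals. That set held 47 of the 475 members, and 86 of its intervals overlapped an interval of all 6 deposited lists. The position and H3K36me2 values below belong to the 475 intervals of the deposited lists.

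WT-only intervals had a median width of 1392 bp, between 327 and 6518 bp, against 2296.5 bp for intervals of all 6 lists. The 3 WT peaks shared at least 1 base at 341 intervals (71.8%), and at the other 134 they were joined only through a chain of overlaps. KO peaks were often near. The closest KO KDM2A peak lay within 200 bp of 34 members, within 1 kb of 111 (23.4%) and within 5 kb of 310 (65.3%), at a median distance of 2628 bp, while 67 members had none within 20 kb.

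The highest mean fold belonged to an interval in an intron of Fibcd1, which encodes a chitin-binding membrane receptor, with the TSS of Qrfp, an RFamide neuropeptide gene, as the nearest start site (chr2:31822727-31823319). Its fold was 2.59, 4.83 and 3.80 in the 3 WT replicates, a mean of 3.74 ± 1.12 (SD, n = 3), so replicate 2 was far above replicate 1. A KO peak lay 808 bp away.
At the TSS of Trim68, an E3 ubiquitin ligase gene (chr7:102686971-102687504), the fold was 3.64, 4.07 and 2.94, and the closest KO peak was 98624 bp away.
At the shared start of the non-coding genes C030034I22Rik and A930029G22Rik (chr17:69417109-69417797) it was 2.61, 3.49 and 4.40.

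An interval in an intron of Etv6, which encodes an ETS family repressor needed in blood stem cells, had a fold of 4.06, 3.28 and 2.76 (chr6:134220094-134220887). At BC028471, a long non-coding RNA gene, the fold was 2.81, 3.60 and 3.66 (chr5:149373701-149374382). The libraries did not rank these intervals in one order, with replicate 1 highest at Etv6 and lowest at BC028471.

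Start sites of protein-coding genes were also among the strongest. Clcc1, an endoplasmic reticulum chloride channel gene, had a fold of 3.88, 2.96 and 3.18 (chr3:108653022-108654491). Taf1a, which encodes a subunit of the RNA polymerase I selectivity factor, had 3.08, 3.21 and 3.59, and was the only one of the 475 members above 3 in every WT library (chr1:183388778-183389116). Ncaph, a condensin I subunit gene, had 3.37, 3.93 and 2.53 (chr2:127133442-127134218), and Chid1, a secreted chitinase-like protein gene, had 2.91, 4.10 and 2.89 (chr7:141538632-141540963). Cep128, a centriole appendage gene, had values close to each other, 3.12, 2.96 and 3.20, with the nearest KO peak 203808 bp away (chr12:91384270-91384648).

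**Figure D1:**
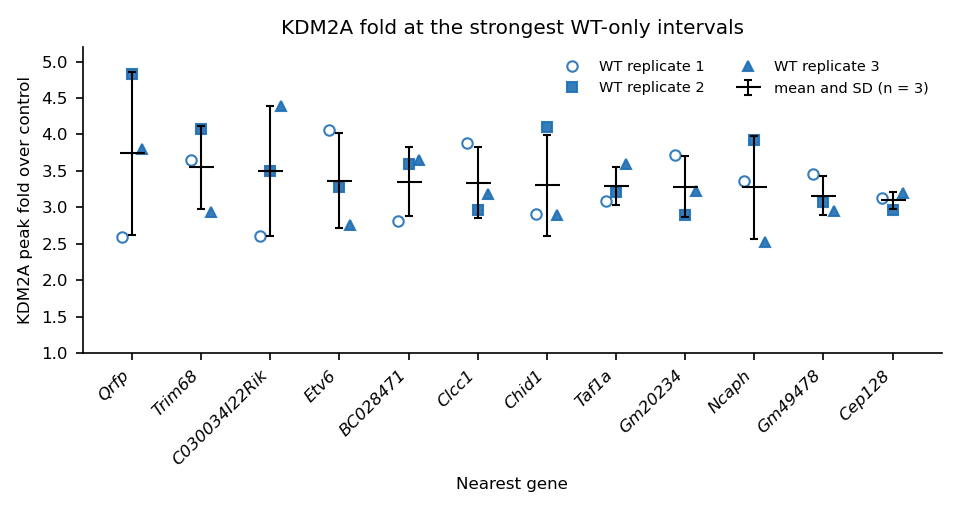
KDM2A peak fold over control (vertical axis, linear ratio) in each WT library at the 12 WT-only intervals of highest mean or highest lowest fold, named by the nearest gene, with the mean and SD of 3 libraries in black. The spread between libraries was widest at the interval nearest to Qrfp (2.59 to 4.83) and small at Cep128 (2.96 to 3.20).

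The widest WT-only interval covered 6518 bp between genes near Psmb9, an immunoproteasome subunit gene in the major histocompatibility complex (chr17:34169229-34175746), with a fold of 2.82, 2.82 and 2.71. Another of 4989 bp lay over H2-Ob, the beta chain gene of a class II molecule that tunes antigen loading in B cells (chr17:34246820-34251808), with 2.65, 3.05 and 2.73. Both were in the segment from H2-K1 to H2-Q10 (chr17:33996017-35474563), which held 9 members among its 268 merged intervals (3.36%, against 0.7% of all intervals). This segment was looked at after the named intervals were seen, and it contains near-identical class I genes at which reads can be misplaced. A pair of the 9 members lay in Skiv2l, an RNA helicase gene of the exosome's SKI complex, and 1 each was nearest to H2-Ab1 and Aif1.

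In the deposited lists the position of WT-only intervals was intermediate. The centre lay within 2 kb of a TSS at 226 members (47.6%), elsewhere within a gene at 164 (34.5%) and between genes at 85 (17.9%). Of all merged intervals 33.7%, 39.7% and 26.6% fell in these classes, and of intervals of all 6 lists 87.6%, 6.99% and 5.37%. The promoter share of the WT-only set was 76.5% with peaks of −log10 q of at least 2, and 26.9% with a narrower window that reached 1 kb before the TSS and 100 bp past it. By the feature at the centre, 223 members lay in introns, 131 between genes, 53 in a UTR exon, 37 in a coding exon and 31 in an exon of a non-coding transcript. Median distance to the nearest TSS was 2434 bp for WT-only intervals and 237 bp for intervals of all 6 lists.

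A CpG island overlapped 120 WT-only intervals (25.3%), 15.8% of all merged intervals and 86.4% of the intervals of all 6 lists. This share was 65.7% in the set made from peaks with a −log10 q of at least 2 and 14.0% in the set made without WT replicate 2. Along the series of lists the share rose in order, from 2.96% at intervals of 1 WT list and 11.6% at those of 2 WT lists, through the WT-only intervals, to 42.2% with 1 KO list added and 66.1% with 2. The share at promoters followed the same order, 22.4%, 37.2%, 47.6%, 61.8%, 77.1% and 87.6%. The number of lists with a peak also rises with the strength of a peak, and its part in this order was not tested. Among promoter members alone, 107 of 226 (47.3%) had an island, against 93.2% of the promoter intervals of all 6 lists, so the gap was also present among promoter intervals.

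**Figure D2:**
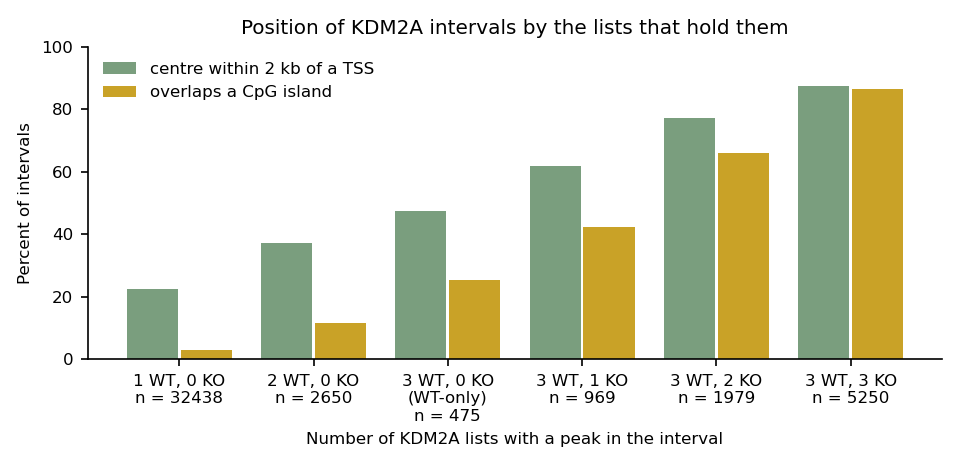
Percent of merged KDM2A intervals (vertical axis) centred within 2 kb of a TSS (green) or overlapping a CpG island (yellow), by the number of WT and KO lists with a peak there. In the deposited lists WT-only intervals, at 47.6% and 25.3%, stood between intervals of 2 WT lists and those with 1 KO list added.

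In the 200 bases around the middle, WT-only intervals held a median of 4 CpG (quartiles 2 and 9.5), against 3 in all merged intervals and 19 in intervals of all 6 lists. The observed over expected CpG ratio had medians of 0.28 and 0.87 in WT-only intervals and intervals of all 6 lists. GC content differed less, at 53.3% and 56.3%, and the share of repeat sequence was 10.2% and 10.3%. At least 10 CpG were found at 119 members (25.1%), against 80.8% of the intervals of all 6 lists. The members at promoters had a median of 8 CpG and those between genes 3.

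**Figure D3:**
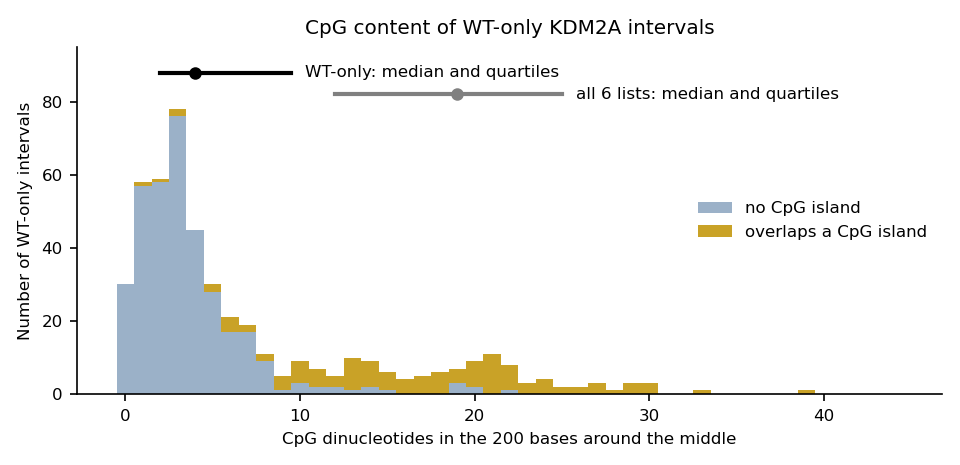
Number of WT-only intervals (vertical axis) by the count of CpG in the 200 bases around their middle, stacked by overlap with a CpG island. Points with lines give the median and quartiles, 4 (2 to 9.5) for WT-only intervals and 19 (12 to 25) for intervals of all 6 lists.

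Short motifs were searched on both strands of the same 200 bases. The GC box GGGCGG, a site of Sp1 family factors, was present in 94 members (19.8%), in 12.9% of all merged intervals and in 55.2% of the intervals of all 6 lists. The windows printed above for Gm10505, Isoc2a, Fibcd1 and Etv6 hold it. The ETS core CCGGAA was in 46 members (9.68%) and in 5.55% and 17.9% of the other sets, respectively. For ACGTG, the core of the hypoxia response element, the shares were 14.1%, 11.6% and 17.8%. GAGGAA, the core bound by PU.1, was at 17.7%, 18.8% and 16.7%, and the AP-1 sequence TGACTCA at 4.42%, 3.90% and 2.40%. The E-box CACGTG was at 5.26%, 3.69% and 5.50%, and the NF-kB consensus site was found in 3 members (0.632%), against 0.122% and 0.229%.

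WT-only intervals were found on every autosome and, at 2 members (0.421%, against 0.865% of all intervals), on X. Chromosome 11 held 60 members (12.6% against 9.35% of all intervals), chromosome 7 held 47 (9.89% against 7.24%), chromosome 12 held 22 (4.63% against 2.98%), chromosome 18 held 17 (3.58% against 1.90%) and chromosome 4 held 18 (3.79% against 7.50%). None lay on Y.

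The nearest genes numbered 465, which was 1.85% of the 25194 genes nearest to any merged interval. Of the members, 361 (76%) were nearest to a protein-coding gene, compared with 66.4% of all intervals. A pair of members shared a nearest gene at 10 genes, among them Ap3d1, Asb2, Fam53b, Gm15441, Inpp5d, Irgc1, Isyna1, Myh9 and Skiv2l.

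Among 26 genes of the B cell receptor and its coreceptors, 4 were nearest to a member, and 5 of the 238 intervals nearest to these genes were WT-only (2.10%, against 0.7% of all intervals). Inpp5d, which encodes the inositol phosphatase SHIP1 that dampens receptor signals and is a known target of miR-155, had a pair of them, both without an island. The interval in its gene body had a KDM2A fold of 2.39, 2.64 and 2.68 (chr1:87643263-87644250), and the one 360 bp from a start site had 2.73, 3.58 and 3.15 (chr1:87708783-87710619). Intronic intervals of Pik3ap1, the adaptor BCAP, and Vav2, a guanine nucleotide exchange factor, had mean folds of 2.73 ± 0.289 and 2.58 ± 0.133 (SD, n = 3), with KO peaks 158 and 350 bp away. These intervals lay mostly inside the genes rather than at their starts.

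Of 26 B cell transcription factor genes, 4 were nearest to a member, with 4 of 349 intervals (1.15%). Spi1, encoding PU.1 and also a known miR-155 target, had an intronic interval with a fold of 2.57, 3.02 and 2.66 and a KO peak 899 bp away (chr2:91085547-91086794). Bach2, a repressor that holds back plasma cell differentiation, had an intronic interval with 2.59, 2.82 and 2.58 (chr4:32404106-32406251). At Irf4, a regulator of plasma cell fate, the interval covered a UTR exon and had 2.62, 3.12 and 3.06 (chr13:30765816-30767160). Pou2f1, the gene of the octamer factor Oct-1, had an interval beside a start site with 2.42, 2.49 and 2.67 (chr1:165934654-165935668). No island overlapped any of these 4 intervals.

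Nuclear genes of mitochondrial proteins, defined by their symbols, gave 6 member genes of 166 and 6 of 338 intervals (1.78%). Ndufc2 and Ndufb8, subunits of respiratory complex I, and Cox7a2l, a factor of respiratory supercomplexes, had members at a start site with an island, with mean folds of 2.88 ± 0.240, 2.81 ± 0.235 and 2.94 ± 0.282 (SD, n = 3). The members nearest to Cox7a1, Ndufs8 and Timm8a2 lay 3201, 7431 and 10878 bp from the start site, the first inside Gm5113 and the second inside Aldh3b1. Nearest distance was thus the only link between these 3 genes and their interval.

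Among 38 DNA replication genes, 3 were nearest to a member, and 3 of 108 intervals were WT-only (2.78%). Rfc3, a subunit of the clamp loader, had a start site interval with a fold of 2.87, 3.18 and 3.02 with the nearest KO peak 281698 bp away, whereas Rfc2 and the DNA polymerase alpha subunit gene Pola2 had intervals of mean fold 2.65 and 2.58. Of 17 genes of oxygen sensing, Ddit4, a hypoxia-induced inhibitor of mTORC1, was nearest to a member, which lay 19092 bp away between genes. Zfp zinc finger genes gave 3 of 703 intervals (0.427%), at Zfp217, Zfp473 and Zfp748. No member was nearest to any of the 22 genes of CD40 and NF-kB signalling, 24 of glycolysis and lactate transport, 8 of interleukin 4 signalling, 14 H3K36 methyltransferases and demethylases, 31 polycomb genes, 11 CXXC genes or 15 genes of the Bcl2 family that had a merged interval. The counts per list are small, and nothing particular to a list is read from them.

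H3K36me2 peaks, which played no part in the choice of members, touched fewer WT-only intervals in KO than in WT. An H3K36me2 peak touched 44.4%, 40.2% and 44.8% of the 475 intervals in WT replicates 1 to 3, and 37.9%, 13.3% and 16.2% in KO replicates 1 to 3. The genotypes did not overlap, but the male KO library stood near the WT libraries while both female KO libraries were far below. The means were 43.2% ± 2.56 and 22.5% ± 13.5 (SD, n = 3), a difference of −20.7 percentage points (exact permutation of the library labels, two-sided p = 0.1, the smallest that 3 against 3 libraries allow). Between the males the difference was −6.53 and between the female means −27.8 percentage points, and the male value rests on 1 library per genotype. With only H3K36me2 peaks of −log10 q of at least 2, the difference of the genotype means shrank to −8.77 (exact permutation test, p = 0.2). Nothing in the labels said that the replicates came from separate animals beyond their sex, so these p-values measure the spread between these libraries.

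The percent of bases within 2.5 kb of the interval centre under H3K36me2 peaks was 26.9, 27.6 and 28.1 in the WT libraries, and the KO libraries had 20.3, 6.27 and 7.05. This was 27.5% ± 0.616 against 11.2% ± 7.89 (SD, n = 3), a difference of −16.3 percentage points (exact permutation test, p = 0.1). It shrank to −6.36 with H3K36me2 peaks of −log10 q of at least 2 and to −11.8 with equal numbers of peaks per list (exact permutation test, p = 0.1 in both). The H3K36me2 lists as a whole also differed in extent. They covered 4.17%, 5.32% and 5.25% of the genome in WT and 3.63%, 1.59% and 1.44% in KO, from 85387, 89768 and 94136 peaks and from 106720, 37447 and 45180 peaks, and library depths were unknown.

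The coverage was also set against that extent. Coverage around WT-only intervals, as a multiple of the genome share that peaks of the same list occupied, was 6.45, 5.17 and 5.36 in WT, with 5.60, 3.95 and 4.88 for KO. The means of 5.66 ± 0.687 and 4.81 ± 0.825 (SD, n = 3) differed by −0.850 (exact permutation test, p = 0.3). The male KO library lay above both female WT libraries. Within each sex every KO library was below every WT library, by −0.848 between the males and −0.851 between the female means. With 1 library left out in turn the difference ran from −1.24 without KO replicate 1 (exact permutation test, p = 0.1) to −0.422 without KO replicate 2 and −0.457 without WT replicate 1 (p = 0.6 in both). With H3K36me2 peaks of −log10 q of at least 2 it was −3.13, and with equal numbers of them −1.75 (exact permutation tests, p = 0.2 and 0.3).

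Intervals that kept KDM2A peaks in KO were also touched less often by H3K36me2 peaks there. At intervals of all 6 lists, H3K36me2 peaks touched 50.3%, 45.6% and 48.7% in WT and 41.6%, 14.4% and 16.4% in KO, and of all merged intervals 28.9%, 29.2% and 30.4% in WT and 26.3%, 9.11% and 10.2% in KO. At the intervals of all 6 lists the means were 48.2% ± 2.39 and 24.1% ± 15.2 (SD, n = 3), a difference of −24.1 percentage points (exact permutation test, p = 0.1). The percent touched at WT-only intervals minus that at intervals of all 6 lists was −5.88, −5.39 and −3.84 in WT, with −3.74, −1.10 and −0.151 for KO, which is a change of 3.37 percentage points with genotype (exact permutation test, p = 0.1). The percent touched also depends on interval width, which differed between the sets. In the fixed window of 2.5 kb the coverage at WT-only intervals exceeded that at intervals of all 6 lists by 7.67 percentage points in WT and 3.60 in KO, a change of −4.06 (exact permutation test, p = 0.1), opposite in sign to the change in percent touched. Scaled by the genome share of each list, the same excess was 1.57 in WT and 1.51 in KO, a change of −0.0579 (exact permutation test, p = 1). By position the change in percent touched was 5.67 at promoters and 7.64 elsewhere in genes (exact permutation test, p = 0.2 in both), and −7.93 between genes (exact permutation test, p = 0.1). The change of 3.37 turned to −0.962 with H3K36me2 peaks of −log10 q of at least 2 and to −1.33 with equal numbers of H3K36me2 peaks per list. The KO over WT ratio of the percent touched was 0.52 at WT-only intervals, 0.50 at intervals of all 6 lists and 0.51 over all merged intervals. Coverage within 2.5 kb was 27.3% in WT and 11.8% in KO at intervals of 3 WT lists and 1 KO list. At intervals of 2 WT lists and no KO list it was 26.1% and 11.5%, and at WT-only intervals 27.5% and 11.2%. The excess over intervals of all 6 lists was thus not particular to WT-only intervals. The KO lists covered less of the genome and read depths were unknown, so less of the mark and fewer called peaks cannot be told apart. In bulk chromatin, fewer cells with the mark and less of the mark per cell cannot be told apart either.

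**Figure D4:**
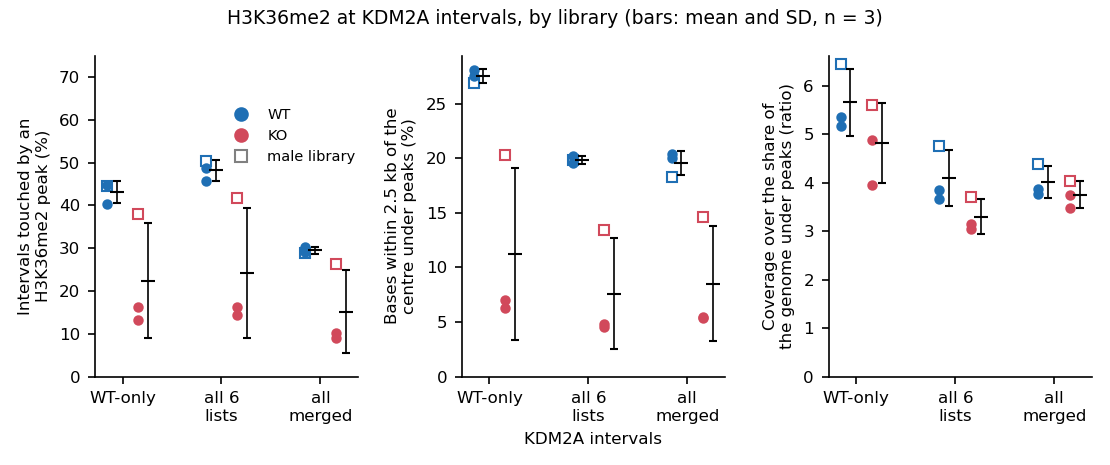
H3K36me2 at KDM2A intervals in each library (points; open squares are the male libraries; bars give the mean and SD of 3 libraries), as percent of intervals touched, percent of bases within 2.5 kb of the centre under peaks, and that coverage over the genome share of the list. Both female KO libraries were lowest in the first and second measure, and in the third the male WT-only values were 6.45 in WT and 5.60 in KO, and the female values 5.17 and 5.36 in WT and 3.95 and 4.88 in KO.

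The H3K36me2 around WT-only intervals depended on where they lay. Coverage within 2.5 kb was 19.3% ± 0.585 in WT and 7.70% ± 5.75 in KO at promoter members, 26.4% ± 0.154 and 10.3% ± 8.13 at members elsewhere in genes, and 51.6% ± 1.59 and 22.2% ± 13.2 at members between genes (SD, n = 3). Members between genes had an H3K36me2 peak in 72.9%, 68.2% and 78.8% of cases in WT and in 62.4%, 29.4% and 35.3% in KO. Members with a CpG island had 13.8% ± 1.16 of bases covered in WT and 4.87% ± 4.02 in KO, and members without one 32.2% ± 0.504 and 13.3% ± 9.20. In each of these 5 classes every KO library was below every WT library in coverage (exact permutation test, p = 0.1 in each). Scaled by the genome share of each list, the classes gave p from 0.2 to 0.6 (exact permutation tests), and between genes KO replicate 3 had 11.2 against 9.69 and 10.1 in WT replicates 2 and 3. H3K36me2 peaks that touched a member were wide, with medians of 2317, 3056.5 and 2419 bp in WT against 858, 1019 and 939 bp for the lists. In KO the medians were 1280, 1168 and 909 bp against 661, 873 and 677 bp. A wide peak touches any set of intervals more often, so nothing is read from the width. The fold of the touching peaks did not separate the genotypes (2.66 ± 0.0723 in WT and 2.69 ± 0.126 in KO, exact permutation test, p = 0.7).

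The course of H3K36me2 across the interval separated WT-only intervals from those of all 6 lists. Coverage in the 500 bp on each side of the middle was divided by that at 1.5 to 2.5 kb. At WT-only intervals the ratio was 1.03, 0.994 and 1.02 in WT, and the KO libraries had 0.905, 1.00 and 0.833. At intervals of all 6 lists the WT libraries had 0.545, 0.387 and 0.490 and the KO libraries 0.439, 0.227 and 0.225. In each of the 6 libraries the ratio was lower at the intervals of all 6 lists than at WT-only intervals, where it was lowest in KO replicates 1 and 3. The mean difference was 0.578 ± 0.113 (SD over 6 libraries; exact sign-flip permutation test over the libraries, p = 0.0312, the smallest that 6 libraries allow; 0.0391 after Benjamini-Hochberg adjustment over 5 such comparisons). The ratio at WT-only intervals did not separate the genotypes beyond the spread (exact permutation test, p = 0.2). The comparison of middle and sides was added after the data were seen, and the 5 comparisons share intervals. The libraries hold both genotypes and share the same intervals, so the sign-flip test covers the spread between libraries, not between sites.

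**Figure D5:**
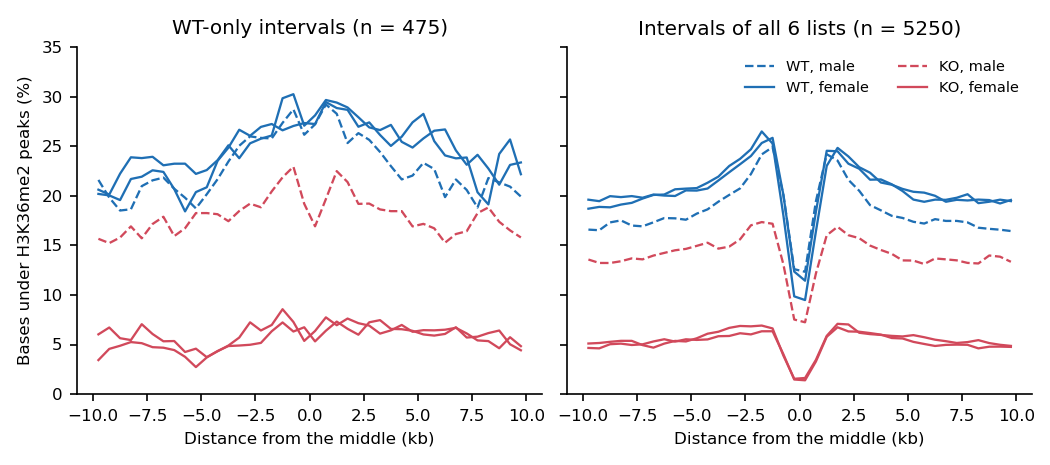
Percent of bases under H3K36me2 peaks (vertical axis) in 500 bp steps from the middle of WT-only intervals (left) and of intervals of all 6 lists (right), for each WT (blue) and KO (red) library, with male libraries dashed. Coverage in the 500 bp on each side of the middle was 12.5% or less at intervals of all 6 lists, where the dip was deep, and 26.7% to 27.6% in WT at WT-only intervals, where it was shallow.

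The sets differed in CpG islands, which overlapped 25.3% of the one and 86.4% of the other, so the ratio was also compared within classes of interval. At the 120 WT-only intervals with an island the ratio had a mean of 0.470 ± 0.306 over the 6 libraries, against 0.281 ± 0.139 at the 4536 island intervals of all 6 lists, and was higher in 4 of 6 libraries (exact sign-flip permutation test, p = 0.156, adjusted p = 0.156). The dip was thus seen at WT-only islands too. Between the 355 WT-only and 714 shared intervals without an island, the ratio was 1.04 ± 0.0613 and 0.743 ± 0.149, higher at WT-only intervals in 6 of 6 libraries (exact sign-flip permutation test, p = 0.0312, adjusted p = 0.0391). Within 2 kb of a TSS the means were 0.868 and 0.314, and beyond it 1.01 and 0.646, again with all 6 libraries in that direction. Interval width and fold also differed between the sets, and their part was not tested.

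At single intervals, an H3K36me2 peak in all 3 WT lists and in no KO list was found at 16 WT-only intervals (3.37%), against 2.21% of all merged intervals and 3.49% of the intervals of all 6 lists. The reverse, all 3 KO lists and no WT list, was found at none, against 0.0192% of all merged intervals. No H3K36me2 list touched 179 members (37.7%, against 52.1% of all merged intervals and 25.8% of the intervals of all 6 lists). All 3 WT lists touched 133 members (28.0%, against 15.7% and 28.0%). H3K36me2 peaks in all 3 WT lists and no KO list were found at 3.20% of intervals of 3 WT lists and 1 KO list. With 2 KO lists the share was 3.03%. The share of WT-only intervals was thus close to that of the sets most like it. Median width was 1392 bp at WT-only intervals and 600 bp over all merged intervals, and the part of width in these shares was not tested.

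Among the 16 was the intron of Fmnl3, an actin-nucleating formin gene, with the pseudogene Gm49478 as nearest start (chr15:99351213-99353254). Its KDM2A fold was 3.46, 3.07 and 2.95, the bases covered by H3K36me2 within 2.5 kb were 74.7%, 64.4% and 27.3% in WT, and the female KO replicate 2 was the only KO library with any. An interval beside Aif1, a calcium-binding protein gene of macrophages in the major histocompatibility complex (chr17:35167978-35169389), had coverage of 52.4%, 97.2% and 93.2% in WT and 4.24%, 12.7% and 7.76% in KO. At an interval 772 bp from the start of Psap, the gene of prosaposin, a precursor of lysosomal lipid hydrolase activators, coverage was 46.5%, 71.6% and 68.5% in WT, with 40.1%, 0% and 0% for KO (chr10:60284191-60286275). These intervals were picked for WT peaks without KO peaks, so lower values in KO follow from the choice. The male KO library stayed near the WT values at Psap, and at another of the 16, nearest to Slco4a1, it had 63.2% against 48.6% in WT replicate 3.

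H3K36me2 at other named members followed no single course. The intronic member of Spi1 was touched in all 6 lists, with coverage of 100%, 80.1% and 88.8% in WT and 100%, 9.62% and 23.8% in KO. The members at Inpp5d had coverage of 0% in every library except 5.10% at the start site in WT replicate 2, and the intronic member of Vav2 had 0% in all 6 libraries. The member in the Bach2 intron had 29.0%, 7.28% and 49.8% in WT and 39.0%, 6.36% and 15.5% in KO, with overlapping genotypes. At the Etv6 intron the values were 31.7%, 22.0% and 48.4% in WT and 11.8%, 0% and 0% in KO.

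Since ChIP-seq lists hold no expression, the cell type was looked at only by KDM2A peaks at marker promoters. All 9 B cell marker genes examined, among them Cd79a, Cd79b and Pax5, had a peak within 2 kb of a start site in 4 to 6 of the 6 lists, whereas Cd3e, Cd3g, Cd4, Lyz2, Itgam and Hba-a1 had none. Of the other markers of T and myeloid cells, Lck had a peak in all 6 lists, Trac in 4, Adgre1 in 2, and Csf1r and Cd8a in 1 each. A peak at a promoter is no check of expression. The labels' cell type was therefore neither supported nor opposed by these lists.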

How the data were processed

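ChIP-seq peak lists of KDM2A and H3K36me2 from 12 libraries were used, and the members, gene lists and tests were chosen with earlier results of these data known. Per the study's methods and notes, the authors ran nf-core/chipseq 1.2.2 with BWA on GRCm38 and MACS2 in broad mode, 1 list for each library. In the deposited lists each peak has a fold over the local control background, a ratio with no scaling across libraries. Also deposited were −log10 of the p-value and −log10 of the q-value, and a score that was not used. Depth is unknown without read counts, and no counting interval is given.

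Peaks of the 6 KDM2A lists were merged where they overlapped by at least 1 bp, and starts are printed as 1-based positions. The middle of an interval is that of the stretch under the most lists, and its centre that of the whole interval. Genes and TSS were from GENCODE M21. CpG islands (16196) were computed from GRCm38.p6 with a running score of 17 per CpG and −1 per other base, at least 200 bp, 50% GC and an observed over expected ratio of 0.6. H3K36me2 was compared over libraries with two-sided exact permutation tests, whose smallest p is 0.1 for 3 against 3. Named intervals were the 10 of highest mean fold, the 5 of highest lowest fold, the 5 widest, those nearest to a gene of the lists, up to 6 with H3K36me2 in WT lists only and those that shared a nearest gene. Merging and overlap were tested on simulated data. Python 3.11.15, numpy 2.4.6, pandas 2.3.3 and matplotlib 3.10.9 were used. Alternatives were other merge gaps, stricter q, equal list sizes, other TSS windows, a replicate block and each library left out. Some named intervals and marker genes are not reported here.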

Additional observations from a re-analysis of the deposited data

How the results depend on the processing

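The number of WT-only intervals was 475 in the deposited lists, 315 with a −log10 q of at least 2, 133 with equal numbers of KDM2A peaks and between 694 and 1571 with 1 library left out (1170, 1571 and 1382 without WT replicates 1, 2 and 3, and 1006 without KO replicate 3). The promoter share of 47.6% became 76.5% with the stricter q, 54.1% with equal numbers, 26.9% with a window of 1 kb upstream to 100 bp downstream, 42.3% with protein-coding TSS and 39.2% to 54.1% with 1 library left out. The CpG island share of 25.3% became 65.7%, 34.6%, 30.5% where the WT peaks share a base, 29.9% without members near a KO peak (added after seeing the data) and 14.0% to 32.5%. KO minus WT in percent touched at WT-only intervals relative to those of all 6 lists, 3.37, reversed to −0.962 with stricter H3K36me2 peaks and to −1.33 with equal numbers of them, and the cause was not tested. The other 48 of 50 H3K36me2 alternatives kept their direction. Among them the replicate block repeats the main differences by construction, and many others reuse the same libraries with 1 left out. The KO minus WT difference in percent touched shrank from −20.7 to −8.77 with stricter H3K36me2 peaks (p = 0.2) and to −13.6 with equal numbers of them (p = 0.1), and relative coverage moved from −0.850 to −3.13 and −1.75 (p = 0.2 and 0.3, exact permutation tests). The difference in the ratio of middle to sides, added after seeing the data, was 0.539 to 0.601 with 1 library left out (p = 0.0625, the smallest that an exact test over 5 libraries allows). Same-numbered libraries did not vary together (correlations −0.0404, 0.0140 and −0.0386), and with replicate number as a block the differences were −20.7, −16.3, −0.850 and 3.37 (exact sign-flip permutation test, p = 0.25 each, the smallest that 3 pairs allow).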
